A study of Mus musculus with 6 samples.

Results

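Glycolysis and glycogen metabolism were followed through 34 genes in mouse quadriceps: the enzymes from hexokinase to lactate dehydrogenase, 4 regulatory or reverse enzymes, 10 genes of glycogen synthesis and breakdown, and 2 lactate carriers. Their members are set by gene symbol, with no threshold on a measured value. All 34 had rows in the deposited expression table, where 252 of the 105129 transcript rows carried their symbols, and values were summed per gene out of 33641 symbols in all. The study set quadriceps of mice whose glucocorticoid receptor gene carries the rs6190 allele in the homozygous state beside that of WT mice, homozygous for the reference allele. Each genotype had 3 libraries, all from males aged 4 months (about 16 weeks per the design text). The mice were littermates born to heterozygous parents, and muscle was frozen at about ZT4, that is 4 hours after lights on. The allele is carried by the whole animal, so cells other than muscle fibres carry it too. RNA was poly-A selected and made into stranded libraries, and no treatment is named in the labels. The labels do not say whether each library came from a separate mouse, so the p-values measure the spread between libraries.

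Glycolysis splits glucose into pyruvate in the cytosol and yields ATP without oxygen, and fast muscle fibres depend on it for short bursts of work. Several of its steps have paralogous enzymes, of which 1 is typical of muscle and the others of liver, brain or growing cells. Glycogen is the glucose store of the fibre: glycogenin starts the chain, glycogen synthase and the branching enzyme extend it, and phosphorylase releases it again under the control of phosphorylase kinase. Glucocorticoids, the ligands of the receptor altered here, are known for raising blood glucose and for acting on muscle protein and glycogen.

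The libraries differed within a genotype. TPM (transcripts per 1000000) is an abundance per transcript length and it keeps no depth. Pairwise correlations of log2 levels across genes, which are not independent replicates, were 0.951 to 0.965 for pairs that include WT replicate 3 and 0.972 to 0.987 for all others. Mitochondrial transcripts took 14.3% of TPM in WT replicate 3 and 20.9% to 33.9% elsewhere. All 5 skeletal muscle markers (Acta1, Ckm, Mb, Des and Ttn) were present, with summed levels from 40710 to 63172 TPM. The 12 fast fibre markers summed to 96718 to 131342 TPM in 5 libraries and to 230661 TPM in WT replicate 3. The 11 slow fibre markers summed to 2770.0, 10791 and 2986 TPM in homozygous replicates 1, 2 and 3, and to 2087, 1390 and 397 TPM in the WT replicates, so the genotypes did not overlap. Markers of adipocytes (6.05 to 25.7 TPM), blood (476 to 851 TPM), immune cells (8.28 to 39.0 TPM), endothelium (24.9 to 37.0 TPM) and fibroblasts (78.0 to 217 TPM) overlapped between genotypes, and those of Schwann cells were 14.4 to 69.9 TPM in homozygous and 7.66 to 12.0 TPM in WT muscle. No gene of these lists was at 0 in all libraries. In bulk muscle, fewer cells of a type and less RNA per cell cannot be told apart.

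None of the 34 genes passed the test between genotypes. Of the 33 that were abundant enough to test (1 TPM or more in at least 3 libraries, which only Aldoc missed), 14 were higher and 19 were lower in homozygous muscle, with a median difference of -0.10 on the log2(TPM + 1) scale. On that scale, with all transcripts summed, 10 of the 11 enzymes of the main glycolytic chain were lower. Of the 10 glycogen genes 7 were higher, against 85.8% of all genes. The test was limma with trend and robust estimation over 11099 genes, at a Benjamini-Hochberg adjusted p under 0.05. It called 0 genes in the whole table (0.0% of those tested), and the smallest adjusted p was 0.107 for any gene and 0.168 for a glycolytic or glycogen gene. At an unadjusted limma p under 0.05, 5 of the 33 genes were higher (15.2%, against 23.7% of all genes) and 1 was lower (3.03%, against 0.55% of all genes). The genotypes did not overlap for 6 of them. Homozygous muscle was above WT for 5 (Pgam1, Gys1, Gbe1, Ugp2 and Slc16a1; 15.2%, against 34.7% of all genes) and below it for 1 (Ppp1r3c; 3.03%, against 0.73%). With array weights, which gave WT replicate 3 a weight of 0.199, limma called 810 genes (7.3%), among them 3 of the 33, Gys1, Slc16a1 and Pfkfb4 (9.09%).

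The whole table leaned towards homozygous muscle, which bears on every difference given here. Of 11099 genes, 9526 were higher there (85.8%), and the median difference was 0.26. Quantile normalization took that median to -0.01. The same scaling changed the counts for the 33 glycolytic and glycogen genes from 14 higher and 19 lower to 9 higher and 24 lower, with a median of -0.27. Relative to the median of all genes, their own median lay at -0.37. WT replicate 3 held the highest value of 19 of the 33 genes (57.6%), against 11.0% of all genes, and the lowest of 11 (33.3%), against 55.8%. Without that library 16 were higher and 17 were lower, with a median of -0.01 against 0.20 for all genes.

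**Figure D1:**
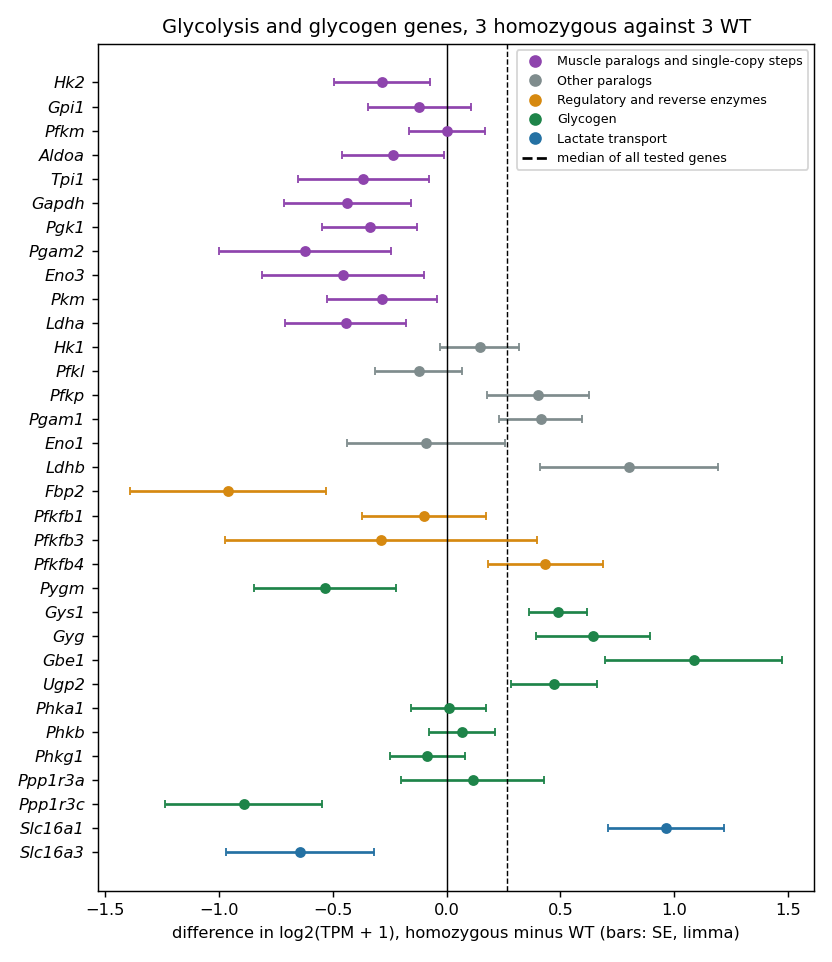
Difference in log2(TPM + 1), homozygous minus WT, for the 33 tested genes, coloured by role; bars are limma standard errors, the solid line is 0 and the dashed line is the median of all tested genes. The muscle enzymes of the main chain lie at or left of 0, and Gys1, Gyg, Gbe1, Ugp2, Slc16a1, Pgam1, Pfkp, Ldhb and Pfkfb4 lie right of the dashed line.

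The 11 muscle paralogs and single-copy enzymes of the main chain were abundant and peaked in 1 library. Together they made up 3.35%, 2.76% and 3.26% of TPM in homozygous replicates 1, 2 and 3 and 3.36%, 3.21% and 5.54% in WT replicates 1, 2 and 3. All 11 had their highest value in WT replicate 3. On the log2(TPM + 1) scale 10 of the 11 were lower in homozygous muscle and Pfkm was at 0.00, with a lowest difference of -0.62 and a median of -0.34. Leaving out WT replicate 3 moved the median to -0.07, with 9 lower and 2 higher. When only protein-coding transcripts were summed, Hk2, Gpi1 and Pfkm were at 0.30, 0.15 and 0.025, and the other enzymes of the group stayed lower. The summed fast fibre markers and the low mitochondrial share of that library moved with these genes, and their part in the result was not tested. Among the fast markers, Myh1 and Myh2 went the other way and were lowest in that library, at 239 and 122 TPM.

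The upper part of the chain traps glucose and cleaves it into 3-carbon sugars. Hk2, the insulin-regulated hexokinase of muscle, was at 100.4, 105 and 95.6 TPM in the homozygous replicates and at 102, 103 and 173 TPM in the WT replicates. Its difference was -0.28 (SE 0.21, adjusted p = 0.390 by limma). Gpi1, which turns glucose-6-phosphate into fructose-6-phosphate, was at 669.7, 690.4 and 769 TPM against 647, 637 and 1105 TPM. WT replicate 3 stood above all other libraries for both genes, and without it Hk2 differed by -0.03 and Gpi1 by 0.14. Pfkm, the muscle phosphofructokinase that sets the pace of the pathway, was at 1450.1, 1177 and 1304 TPM against 1224, 1202 and 1512 TPM. Its group means were 1310.2 ± 137 and 1312 ± 173 TPM (SD, n = 3 each), and the ranges overlapped. Aldoa, the aldolase that cleaves the 6-carbon sugar, was the most abundant gene of the set, at 14045, 12840.3 and 15364 TPM against 15873, 13761 and 20707 TPM. It differed by -0.24 (adjusted p = 0.494 by limma). Its symbol is carried by 2 annotated genes, and all rows with that symbol are in the sum.

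The lower part of the chain recovers ATP and ends in pyruvate and lactate. Tpi1, triose phosphate isomerase, was at 1692, 971 and 1136 TPM in homozygous and 1267, 1381 and 2294 TPM in WT muscle. Gapdh, which makes the first high-energy phosphate, was at 5521, 5245 and 6147 TPM against 6020.0, 6262 and 11700 TPM. Pgk1, the kinase that follows it, was at 423, 346 and 459 TPM against 405, 501 and 668 TPM. These 3 genes overlapped between genotypes and were highest in WT replicate 3. Pgam2, the muscle phosphoglycerate mutase, had the lowest difference of the group with all libraries in, at 2554, 1456 and 1702 TPM against 2187, 2043 and 5179 TPM (-0.62, SE 0.38, adjusted p = 0.310 by limma). Eno3, muscle enolase, was at 3860.5, 2367 and 2669 TPM against 3090.5, 2929 and 6946 TPM. For both, homozygous replicates 2 and 3 were below every WT library and homozygous replicate 1 lay among them. Ldha, the lactate dehydrogenase subunit of fast muscle, followed the same order with 1674, 1067 and 1345 TPM against 1505, 1537 and 2616 TPM. Its difference was -0.44 (adjusted p = 0.305 by limma), and -0.18 without WT replicate 3.

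**Figure D2:**
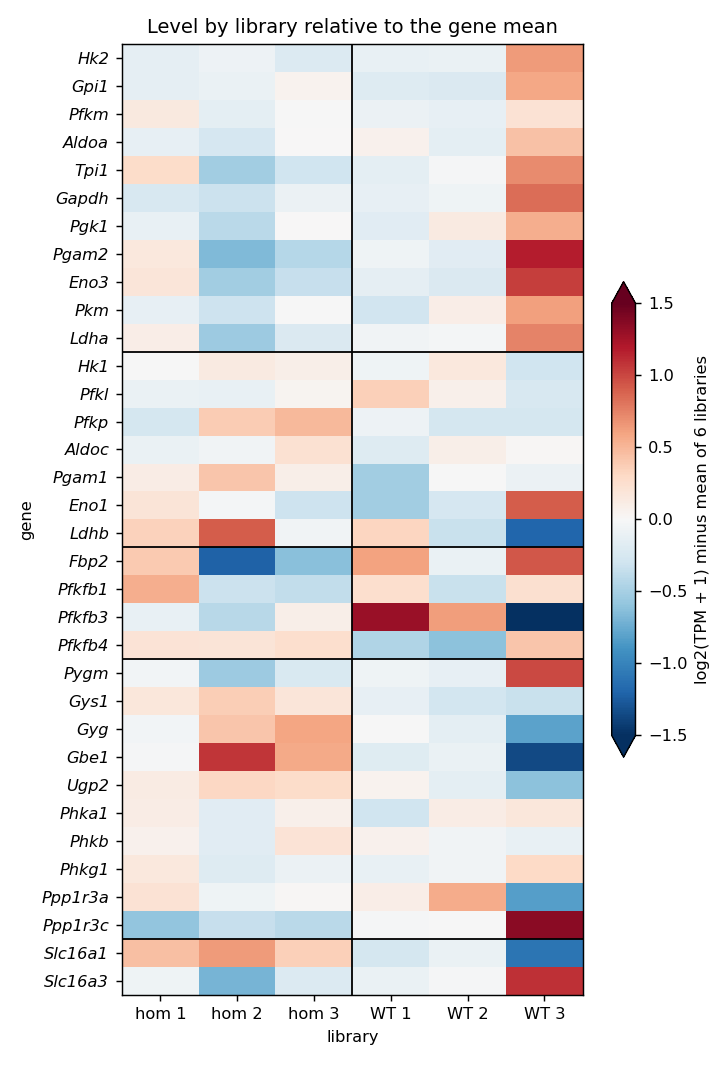
Log2(TPM + 1) of each of the 34 genes in each library minus the mean of the 6 libraries, grouped by role with lines between the groups; red is above and blue below the gene's mean. The main chain at the top is reddest in WT replicate 3, where Ldhb, Pfkfb3, Gyg, Gbe1 and Slc16a1 are among the bluest.

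Pkm, pyruvate kinase, makes M1 and M2 enzymes from 1 gene by using 1 of a pair of neighbouring exons. The M1 form is always active and typical of adult muscle, and the M2 form is regulated and typical of growing cells. The exons are shown because they are what sets the isoforms apart: both are 167 bases long, 103 of those bases are the same (61.7%), and the other 10 exons of the transcripts are shared in full or in part. They lie on the plus strand of chromosome 9 in GRCm38, the upstream one at chr9:59675029-59675195 (in Pkm-202, the M1 form) and the downstream one at chr9:59675568-59675734 (in Pkm-201, the M2 form). Capitals mark the bases that differ between them.
Pkm-202 exon: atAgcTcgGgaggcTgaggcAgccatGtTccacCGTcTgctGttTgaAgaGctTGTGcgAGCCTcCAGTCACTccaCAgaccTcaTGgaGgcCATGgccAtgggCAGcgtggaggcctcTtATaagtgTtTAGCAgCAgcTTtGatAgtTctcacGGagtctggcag
Pkm-201 exon: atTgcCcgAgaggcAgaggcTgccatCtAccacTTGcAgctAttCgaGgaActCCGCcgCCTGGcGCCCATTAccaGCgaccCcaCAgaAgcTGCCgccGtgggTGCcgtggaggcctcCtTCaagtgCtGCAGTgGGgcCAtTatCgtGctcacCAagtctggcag

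Both Pkm forms were abundant and overlapped between genotypes. As a gene, Pkm was at 1488, 1303 and 1615 TPM in homozygous and 1324, 1728 and 2478 TPM in WT muscle (difference -0.29). Pkm-202 was at 915, 785 and 967 TPM against 779, 1082 and 1100 TPM, and Pkm-201 at 538, 460 and 590 TPM against 508, 588 and 1313 TPM. The last value stands out, since Pkm-202 in WT replicate 3 was close to its level in WT replicate 2. The share of Pkm-202 in both was 63.0%, 63.0% and 62.1% in homozygous and 60.6%, 64.8% and 45.6% in WT muscle, a difference of 5.72 percentage points (two-sided exact permutation p = 0.6, where 0.1 is the smallest that 3 against 3 allows). The forms share most of their exons, so the split rests on how the authors' software divided reads among them.

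Gapdh showed a similar shift among isoforms. Its most abundant one, Gapdh-203, was at 3729, 3663 and 4323 TPM in homozygous and 3844, 3918 and 3298 TPM in WT muscle, lowest in WT replicate 3. The excess of that library lay in Gapdh-202 (4810.0 TPM, against 1417 to 1914 TPM in the others) and in Gapdh-206, a retained-intron transcript of 565 nt (3292 TPM, against 55.5 to 185 TPM). Gapdh-201 did not overlap between genotypes, at 1.92, 13.3 and 1.27 TPM against 19.7, 592 and 215 TPM (difference -4.92, adjusted p = 0.263 by limma over isoforms). Gapdh has 76 other annotated genes with near-identical transcripts (at least 95% identity over 200 bases or more), which held 10.2% of their joint TPM. With them added, the sums were 6207, 5873 and 6970 TPM against 6665, 7053 and 12758 TPM, with WT replicate 3 again the highest. Pgk1 had 2 such copies with 8.36% of the joint TPM, and no other member of the pathway had copies above 0.26%.

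**Figure D3:**
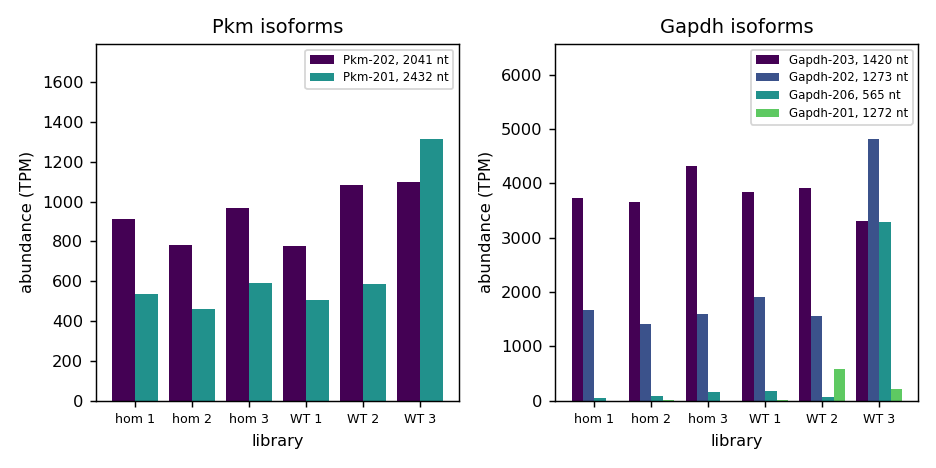
TPM of the main Pkm isoforms (left) and of 4 Gapdh isoforms (right) in each library, 1 bar per isoform; transcript lengths are in the legend. In WT replicate 3, Pkm-201 (1313 TPM) is above Pkm-202 (1100 TPM), and Gapdh-202 and Gapdh-206 reach 4810.0 and 3292 TPM.

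The other paralogs of these steps were less abundant than the muscle forms, and 4 of the 6 tested were higher in homozygous muscle (3 of 6 after quantile normalization). Their median difference of 0.27 was close to that of all genes (0.26). Pgam1, the widely expressed mutase, was the 1 whose groups did not overlap, at 11.1, 14.0 and 10.9 TPM in homozygous and 6.80, 10.2 and 9.49 TPM in WT muscle (difference 0.41, SE 0.18, adjusted p = 0.211 by limma). That is 0.15 above the median of all genes. Ldhb, the lactate dehydrogenase subunit of heart and slow fibres, was at 257, 379 and 195 TPM against 253, 160.2 and 88.1 TPM (0.80, SE 0.39, adjusted p = 0.240 by limma), and the difference was 0.41 without WT replicate 3. Its highest library, homozygous replicate 2, is the one with the most slow fibre marker RNA, and its lowest, WT replicate 3, the one with the least; the part of fibre type in this was not tested. Eno1, the enolase of most tissues, was at 58.0, 49.6 and 40.6 TPM against 34.8, 42.3 and 95.8 TPM, and unlike Ldhb it was highest in WT replicate 3. Its difference of -0.09 turned to 0.34 without that library.

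Low levels limited the remaining paralogs. Hk1, the hexokinase of most tissues, was at 1.43, 1.68 and 1.61 TPM in homozygous and 1.33, 1.72 and 0.98 TPM in WT muscle, a difference of 0.15 that became -0.11 after quantile normalization. Pfkl, the liver-type phosphofructokinase, was at 2.80, 2.77 and 3.19 TPM against 4.22, 3.30 and 2.45 TPM, and overlapped. Pfkp, the platelet type, lay between 1.58 and 3.35 TPM, with a difference of 0.40 and an overlap. Aldoc, the brain aldolase, was at 0.20, 0.23 and 0.50 TPM against 0.12, 0.36 and 0.30 TPM and was not tested.

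The muscle paralog took most of the RNA of its family in all but the Pfkfb genes, and by the means its share was lower in homozygous muscle in 7 of 8 families. The 7 include Pfkm at -0.039 and Aldoa at -0.00055 percentage points. These 2 turned positive without WT replicate 3 and without homozygous replicate 3, respectively. Shares do not move when all values of a library are multiplied by the same factor. A lean that depends on abundance can still move them, and shares after quantile normalization are not given. Slc16a3, a lactate exporter of fast fibres treated with its paralog Slc16a1 below, made up 87.6%, 79.7% and 87.3% of the pair in homozygous and 92.1%, 91.6% and 98.1% in WT muscle. Eno3 made up 98.5%, 97.9% and 98.5% of the enolase RNA against 98.9%, 98.6% and 98.6%. In these 2 families every homozygous library was below every WT library, by 9.06 and 0.379 percentage points in the means. The two-sided exact permutation p was 0.1 for each, the smallest that 3 against 3 allows, and 0.4 after Benjamini-Hochberg adjustment over the 8 families.

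The other families overlapped between genotypes. Ldha took 86.7%, 73.8% and 87.3% of the lactate dehydrogenase RNA in homozygous and 85.6%, 90.6% and 96.7% in WT muscle, a difference of -8.38 percentage points (exact permutation p = 0.3, adjusted 0.48). Only homozygous replicate 2 lay below all WT libraries. Pgam2 held 99.1% to 99.6% against 99.5% to 99.8%, Hk2 held 98.3% to 98.6% against 98.4% to 99.4%, and Pfkm 99.5% to 99.7% in both genotypes. The exact permutation p of these 3 was 0.2 to 0.7. Aldoa made up nearly all aldolase RNA in every library.

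**Figure D4:**
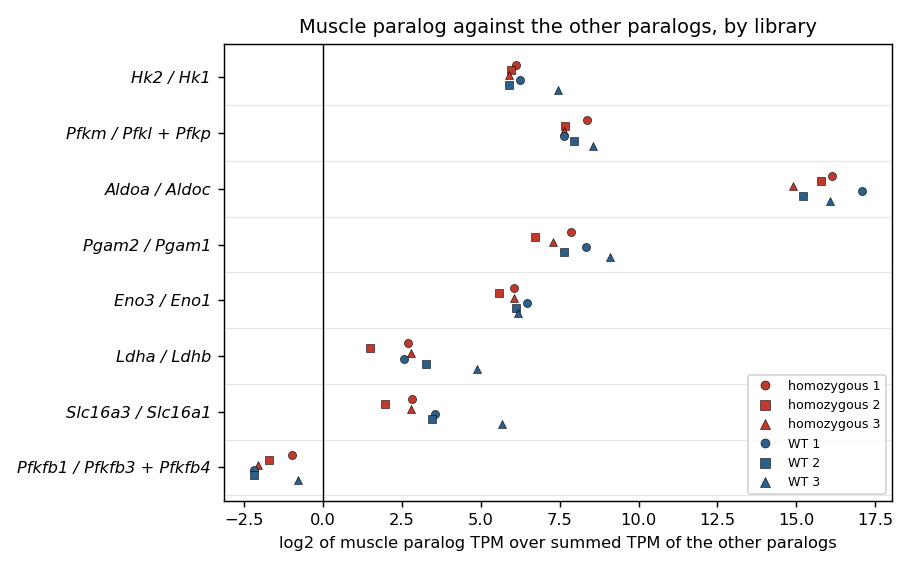
Log2 of the TPM of the muscle paralog over the summed TPM of the other paralogs in each library (red homozygous, blue WT; the marker shape is the replicate). Homozygous libraries lie below all WT libraries for Slc16a3 over Slc16a1 and for Eno3 over Eno1; in the other families they overlap.

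Among the regulatory and reverse enzymes, 1 of 4 was higher and 3 were lower in homozygous muscle, and all overlapped. Fbp2, the muscle fructose bisphosphatase that runs the phosphofructokinase step backwards, was at 44.2, 13.8 and 21.3 TPM against 51.3, 31.2 and 64.5 TPM. Its difference of -0.96 (SE 0.43, adjusted p = 0.219 by limma) was the lowest of the 33 genes with all libraries in. Ppp1r3c or Pfkfb3 was lower than Fbp2 with array weights and when homozygous replicate 2 or 3, or WT replicate 1 or 3, was left out, and Fbp2 was at -0.60 without homozygous replicate 2. The bifunctional enzymes Pfkfb1, Pfkfb3 and Pfkfb4 make and degrade fructose 2,6-bisphosphate, the activator of phosphofructokinase. Pfkfb3, the form with the strongest kinase activity, was at 68.1, 55.0 and 78.4 TPM in homozygous and 183, 115 and 25.4 TPM in WT muscle. WT replicates 1 and 2 were above and WT replicate 3 was below every homozygous library. Its difference was -0.29 with all libraries, -1.11 without WT replicate 3 (adjusted p = 0.161 by limma) and 0.29 without WT replicate 1.

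Pfkfb4 showed the reverse arrangement. It was at 47.0, 46.9 and 48.5 TPM in homozygous and 29.5, 26.2 and 54.8 TPM in WT muscle, so that WT replicate 3 alone stood above the homozygous libraries. The difference was 0.43 (SE 0.25, adjusted p = 0.296 by limma), 0.75 without WT replicate 3 (adjusted p = 0.145) and 0.66 with array weights (adjusted p = 0.0416 by limma). Its coding transcript Pfkfb4-201 did not overlap between genotypes, at 19.1, 16.8 and 18.5 TPM against 12.1, 8.09 and 8.32 TPM (0.88, SE 0.19, adjusted p = 0.247 by limma), the smallest p of any isoform in the set. Pfkfb1, the form of liver and muscle, was at 57.6, 31.3 and 30.1 TPM against 46.9, 31.0 and 46.4 TPM. It took 33.4%, 23.5% and 19.2% of the RNA of the 3 genes against 18.1%, 18.0% and 36.7% (exact permutation p = 0.8).

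Of the 10 glycogen genes, 7 were higher and 3 were lower in homozygous muscle, against 85.8% higher over all genes, and after quantile normalization 4 were higher and 6 lower. None passed the threshold (smallest adjusted p = 0.168 by limma). The 4 that build glycogen (Gys1, Gyg, Gbe1 and Ugp2, a subset named by role after their values were seen) were all higher in homozygous muscle, with differences of 0.47 to 1.09 and a median of 0.57, which is 0.30 above the median of all genes. Phosphorylase and its kinase subunits (Pygm, Phka1, Phkb and Phkg1) had a median of -0.04, with 2 higher and 2 lower, and of 0.04 without WT replicate 3, with 3 higher and 1 lower. Of the subunits that target phosphatase to glycogen Ppp1r3a differed by 0.11 and Ppp1r3c by -0.89. Together the 10 genes held 0.394% to 0.474% of TPM in homozygous and 0.460%, 0.443% and 0.782% in WT muscle, where Pygm sets most of the sum.

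Gys1, the muscle glycogen synthase that adds glucose to the chain, had the smallest p of the 33 genes. It was at 120.1, 138 and 121 TPM in homozygous and 97.9, 87.6 and 84.1 TPM in WT muscle, or 127 ± 10.2 against 89.9 ± 7.15 TPM (SD, n = 3 each). All homozygous libraries were above all WT libraries, and the difference was 0.49 (SE 0.13, adjusted p = 0.168 by limma), 0.22 over the all-gene median. It was 0.44 without WT replicate 3, close to the value with all libraries. Gbe1, the branching enzyme, had the largest difference with all libraries in, at 23.8, 52.0 and 36.2 TPM against 21.2, 22.5 and 8.85 TPM (1.09, SE 0.39, adjusted p = 0.178 by limma). Homozygous replicate 1 lay just above WT replicate 2, and without WT replicate 3 the difference was 0.68. The difference lay in its most abundant coding transcript, Gbe1-203, at 22.9, 44.1 and 34.6 TPM against 14.0, 17.1 and 4.95 TPM.

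Ugp2 makes UDP-glucose, the substrate of glycogen synthase. It was at 389, 445 and 432 TPM in homozygous and 369.6, 324 and 233 TPM in WT muscle, with no overlap (0.47, SE 0.19, adjusted p = 0.190 by limma). Gyg, glycogenin, the primer of the chain, was at 336, 461 and 523 TPM against 345, 311 and 197 TPM, and homozygous replicate 1 fell among the WT libraries. Its difference was 0.64 (SE 0.25, adjusted p = 0.187 by limma). All 4 synthesis genes had their lowest value in WT replicate 3, and without it their median difference was 0.42 against 0.20 for all genes. The slow fibre markers, which were higher in homozygous muscle, moved with them, and their part was not tested.

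Pygm, muscle glycogen phosphorylase, was the most abundant gene of glycogen breakdown, at 3121, 2206 and 2745 TPM in homozygous and 3072, 2945 and 6352 TPM in WT muscle. It differed by -0.53 (SE 0.31, adjusted p = 0.297 by limma), and by -0.18 without WT replicate 3. When only protein-coding transcripts were summed, Pygm differed by -0.19 (adjusted p = 0.509 by limma). With all transcripts summed, the kinase that activates it differed less. Phkg1, the muscle catalytic subunit, was at 298, 233 and 253 TPM against 248, 258 and 329 TPM. Phka1, the muscle alpha subunit, was at 141, 116 and 137 TPM against 106, 141 and 147 TPM, and Phkb, the beta subunit, at 209, 177 and 231 TPM against 209, 192 and 185 TPM. The 3 subunits differed by -0.09 to 0.07 and overlapped, and the small positive values of Phka1 and Phkb turned to -0.17 and -0.13 after quantile normalization. Phkb differed by 0.80 when only protein-coding transcripts were summed, which is further from 0 than Pygm in that setting.

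Ppp1r3c, also known as protein targeting to glycogen, was the 1 gene below WT in every homozygous library. It was at 67.6, 80.6 and 76.9 TPM in homozygous and 101, 102 and 263 TPM in WT muscle (75.0 ± 6.66 against 156 ± 93.4 TPM, SD, n = 3 each). The difference was -0.89 (SE 0.35, adjusted p = 0.187 by limma), and without WT replicate 3 it was -0.44 (adjusted p = 0.163 by limma). Ppp1r3a, the muscle-specific targeting subunit, was at 35.6, 29.3 and 31.2 TPM against 32.8, 45.6 and 16.9 TPM, overlapped, and changed sign without WT replicate 3 (0.11 to -0.27).

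**Figure D5:**
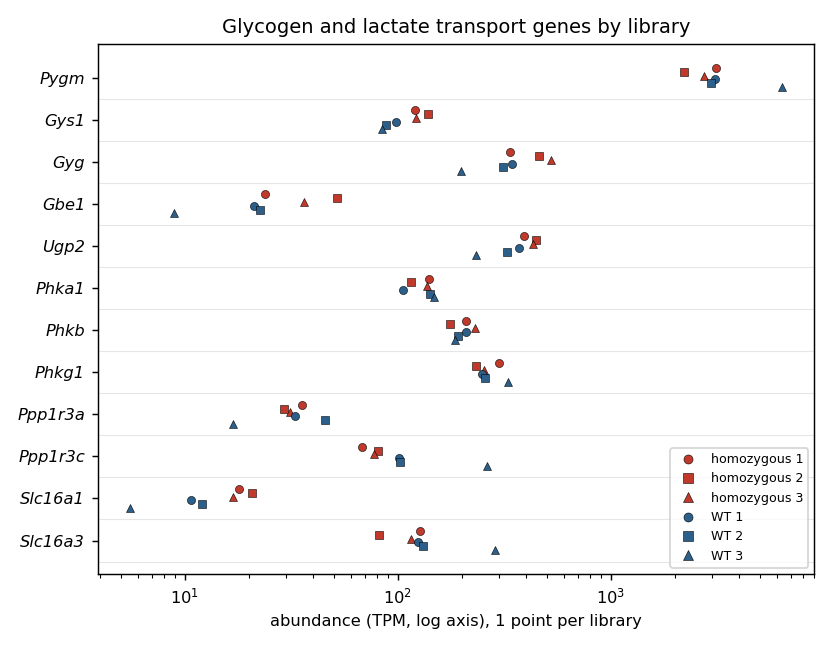
TPM of the 10 glycogen genes and both lactate carriers in each library on a log axis (red homozygous, blue WT; the marker shape is the replicate). Gys1, Gbe1, Ugp2 and Slc16a1 are higher in every homozygous library and Ppp1r3c lower, and the blue triangle of WT replicate 3 is the highest or lowest point in most rows.

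The lactate carriers differed in opposite directions. Slc16a1 (MCT1), which takes up lactate in oxidative fibres, was at 18.0, 20.8 and 16.9 TPM in homozygous and 10.7, 12.1 and 5.55 TPM in WT muscle, or 18.6 ± 1.98 against 9.43 ± 3.43 TPM (SD, n = 3 each). The groups did not overlap, and the difference was 0.96 (SE 0.26, adjusted p = 0.168 by limma), 0.70 over the all-gene median. The value was 0.66 without WT replicate 3. Slc16a3 (MCT4), which exports lactate from glycolytic fibres, was at 127, 81.5 and 116 TPM against 124, 131 and 286 TPM, overlapped, and differed by -0.65 (SE 0.33, adjusted p = 0.245 by limma). Without WT replicate 3 that was -0.26. The fibre markers ran the same way as this pair, with slow markers higher in homozygous libraries and the summed fast markers highest in WT replicate 3. Of the 12 fast markers, Myh1 and Myh2 went the other way and were higher in every homozygous library. Their part was not tested.

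Transcripts of the pathway were also tested one by one. Of their 252 rows, 150 were abundant enough, and 74 were higher and 76 lower in homozygous muscle. None passed limma's adjusted threshold, which 9 of 21165 isoforms in the table did (0.0425%). At an unadjusted p under 0.05 there were 22 (14.7%, against 15.7% of all isoforms), 16 higher and 6 lower. The most abundant isoform was protein coding in 31 of the 34 genes, and 11 genes had over 90% of their TPM in it. Besides Pfkfb4-201, the smallest p-values belonged to Gpi1-208, annotated as a target of nonsense-mediated decay (16.2, 14.0 and 15.2 TPM against 4.56, 6.99 and 1.62 TPM), and Gpi1-211, a retained-intron transcript (26.5, 27.7 and 30.8 TPM against 19.8, 15.5 and 12.4 TPM). Both were above WT in every homozygous library, with adjusted p = 0.252 by limma for each.

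Within Hk2 and Phkb, isoforms differed in opposite directions. Hk2-201, the coding transcript of 5513 nt, was at 64.0, 68.4 and 63.8 TPM in homozygous and 52.9, 52.5 and 56.2 TPM in WT muscle, all above. Hk2-202, a transcript of 594 nt with no coding sequence, was at 36.1, 36.1 and 31.8 TPM against 48.8, 50.8 and 116 TPM, all below. The difference of Hk2 accordingly turned from -0.28 to 0.30 when only protein-coding transcripts were summed. Phkb-201, coding and 5351 nt long, was at 71.4, 56.9 and 63.2 TPM against 53.6, 52.0 and 21.3 TPM, and the noncoding Phkb-207 at 83.6, 73.8 and 106 TPM against 112, 112 and 144 TPM. As with Hk2, the coding form was above and the noncoding form below WT in every library. Pygm-203, a retained-intron transcript of 532 nt, was at 298, 193 and 293 TPM against 344, 411 and 1555 TPM, while the coding Pygm-201 was at 1189, 871 and 1016 TPM against 1077, 911 and 827 TPM and overlapped. In the table each of the 4 matched Pygm rows has an unmatched row with the same values, and both are in the gene's sum.

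The mean length of a gene's transcripts, weighted by TPM, was then computed for each library. For Hk2 it was 3736, 3812 and 3878 nt in homozygous and 3148, 3095 and 2194 nt in WT muscle, and for Gbe1 2899, 2687 and 2901 nt against 2319, 2461 and 1960 nt. Of 24 genes of the pathway with 2 or more tested isoforms, 7 were longer in every homozygous library (29.2%, against 7.59% of 4795 genes): Gapdh, Gbe1, Gpi1, Hk2, Pfkm, Pygm and Ugp2. Another 3 (Ldha, Pgk1 and Slc16a3) were shorter in every one (12.5%, against 12.4%). These counts set no minimum on the gap, and some gaps were very small. Pfkm was at 2832.66, 2835.68 and 2835.46 nt in homozygous and 2832.04, 2831.06 and 2822.15 nt in WT muscle. Pgk1 was at 1822.47, 1822.31 and 1823.35 nt against 1824.05, 1824.18 and 1823.37 nt. WT replicate 3 had the shortest mean for 11 of the 24 (45.8%, against 31.6% of all 4795 genes). In that library 84.7% of the pathway's TPM was in rows annotated as protein coding, against 92.0% to 92.6% in the other 5. The 4 unmatched Pygm rows have no annotated type and count here as not protein coding. They repeat the values of the matched rows, the coding Pygm-201 among them, so these shares are too low. The mean transcript length over the whole table was 1313 to 1340 nt in homozygous and 1222 to 1265 nt in WT libraries. By replicate the WT values were 1265, 1222 and 1260 nt, so WT replicate 3 was not the shortest over the whole table. Among the 4795 genes, fewer were longer (7.59%) than shorter (12.4%) in every homozygous library. The part of the library-wide values in the transcript lengths of the pathway was not tested.

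The 250 bases upstream of each start site (RefSeq, GRCm38.p6) were searched on both strands, with all 34 genes matched. The full glucocorticoid receptor palindrome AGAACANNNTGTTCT was in none of them and in 3 of 27025 genes. A single arm of it, AGAACA, which the palindrome contains, was upstream of 9 of the 34 genes (26.5%, against 18.2% of all genes), the E-box CACGTG upstream of 6 (17.6%, against 6.86%) and the MEF2 motif of muscle genes upstream of 3 (8.82%, against 3.42%), Pgam2, Pfkfb1 and Ppp1r3a. A gene counts once if any of its annotated starts has the motif, and the shares were not matched for the number of starts per gene. Pfkm and Pfkfb1, for example, have several starts, and their E-box and MEF2 matches lie at only 1 of them each. A match of letters is no evidence of binding, and no match says only that these letters are not in the window. The upstream stretches of Pgam2, the main-chain gene with the lowest difference, and Slc16a1, the lactate carrier with non-overlapping groups, are shown 5′ to 3′ on the gene's strand as examples of a MEF2 and an E-box match, which the capitals mark. That of Pgam2 is chr11:5803797-5804046 on the minus strand, with its match starting at position -80 from the start, and that of Slc16a1 is chr3:104638414-104638663 on the plus strand.
Pgam2 upstream: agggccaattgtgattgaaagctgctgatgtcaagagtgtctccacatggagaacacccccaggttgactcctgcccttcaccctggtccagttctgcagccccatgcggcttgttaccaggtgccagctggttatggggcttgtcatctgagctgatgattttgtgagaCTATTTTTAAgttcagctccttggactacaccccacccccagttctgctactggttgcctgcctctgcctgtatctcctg
Slc16a1 upstream: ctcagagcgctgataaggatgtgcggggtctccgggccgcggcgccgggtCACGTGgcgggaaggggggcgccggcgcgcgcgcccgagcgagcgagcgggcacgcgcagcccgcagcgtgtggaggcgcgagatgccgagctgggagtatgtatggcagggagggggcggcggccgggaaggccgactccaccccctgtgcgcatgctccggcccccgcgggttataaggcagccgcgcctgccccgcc

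Other genes of the pathways, 52 in a list drawn up by function, were all in the table, and 38 were tested. Of these, 29 were higher and 9 were lower in homozygous muscle, with a median difference of 0.20 against 0.26 for all genes. None passed limma's adjusted threshold, and 9 were at an unadjusted p under 0.05, all higher (23.7%, the same share as over all genes). After quantile normalization 15 were higher and 23 lower. Of the 5 most abundant, only Mpc1, a subunit of the mitochondrial pyruvate carrier, did not overlap, at 622, 649.9 and 593 TPM against 525, 457 and 459 TPM (0.37, adjusted p = 0.176 by limma). Pgm2, a phosphoglucomutase, was at 618, 399.7 and 495 TPM against 569, 709.9 and 703 TPM. Bsg, Mpc2 and Gpd1 overlapped, with differences of -0.07, 0.03 and -0.39.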

How the data were processed

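RNA-seq was made from quadriceps, with 3 libraries from homozygous and 3 from WT mice. The authors deposited a table of TPM per transcript with gene symbols, per the file headers. The submitters' processing notes name FastQC, Trimmomatic, HISAT2, kallisto and mm10, with no versions or order; the use of strand in quantification is not given in these sources. TPM keeps no depth, so no counting interval is given.

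TPM was summed per symbol and analysed as log2(TPM + 1), which understates differences of low genes, with limma 3.58.1 (R 4.3.3), genotype as the only term. Features needed 1 TPM in 3 libraries. The fit was run on simulated data with independent noise. Those data had no lean between genotypes and no outlying library, so the check does not cover either. Paralog shares were compared by exact permutation. Transcripts were named from GENCODE M21 (GRCm38), matched without version (248 of 252 rows), and near-identical copies were found with blastn 2.17.0. The genes and lists were chosen with earlier results of these data known. Values were given for every library for the muscle paralog and main other paralog of each family, genes without overlap, and the most abundant glycogen gene of each role; isoforms named are the 3 with the smallest p and others chosen after their values were seen. Alternatives were quantile normalization, mitochondrial transcripts left out, no filter, a pseudocount of 0.1, a replicate block, array weights, leaving out each library and, chosen after seeing the data, protein-coding transcripts only. The last of these drops the 4 unmatched Pygm rows, which have no annotated type.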

Additional observations from a re-analysis of the deposited data

How the results depend on the processing

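Of the 33 tested genes, 21 kept their direction in all 13 settings run, among them Gys1, Gyg, Gbe1, Ugp2, Slc16a1, Pgam1, Pfkfb4, Ppp1r3c and 8 of the main chain, and 12 did not. Apart from array weights, the lowest adjusted limma p of any of them was 0.145. The deviations of same-numbered libraries correlated at r = -0.07, 0.06 and -0.01, and those of the other pairs at -0.14 to 0.13. With 3 libraries per group these values cannot exclude a pairing. With the replicate block 0 genes and 0 isoforms passed the threshold. Array weights gave 810 genes, 3 of the pathway and 14 isoforms, and turned Gpi1 to 0.10, Eno1 to 0.30, Phkb to -0.016 and Ppp1r3a to -0.13. The 9 isoforms called became 3 with quantile normalization, 5 without mitochondrial transcripts, 0 with no filter and 4 with a pseudocount of 0.1. Quantile normalization turned Hk1 to -0.11, Pfkm to -0.066, Phka1 to -0.17, Phkb to -0.13 and Ppp1r3a to -0.17. Leaving out mitochondrial transcripts turned Pfkm to -0.013 and Phka1 to -0.0042. Summing only protein-coding transcripts, chosen after seeing the data, turned Hk2 to 0.30 and Gpi1 to 0.15. The cause of these turns was not tested.

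Leaving out 1 library at a time gave 0 to 2 genes past the threshold (2 without WT replicate 1). Pathway genes without overlap numbered 8 to 15, against 6 with all libraries. There were 15 without homozygous replicate 1, 14 without WT replicate 1 and 10 without WT replicate 3. Smaller groups overlap less, among all genes too. With all libraries, 34.7% of all genes were above and 0.73% below without overlap. The all-gene shares with a library left out are not given, so the larger counts are no result about the pathway. Isoforms past the threshold numbered 0 to 36 in these settings. There were 36 without WT replicate 1, 1 without homozygous replicate 3, and 0 without homozygous replicate 1 or 2 or WT replicate 3. Differences ranged over -0.26 to 0.14 for Gpi1, -0.075 to 0.11 for Pfkm, -0.28 to 0.024 for Pfkl, -0.37 to 0.34 for Eno1, -0.40 to 0.061 for Pfkfb1, -1.11 to 0.29 for Pfkfb3, -0.14 to 0.10 for Phka1, -0.021 to 0.17 for Phkb, -0.18 to 0.041 for Phkg1 and -0.27 to 0.42 for Ppp1r3a. Differences in share ranged over -0.104 to 0.0231 percentage points for Pfkm, -0.00107 to 1.56e-05 for Aldoa and -2.93 to 7.28 for Pfkfb1. Depth could not be judged from TPM.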
